A study of Danio rerio with 24 samples.

Results

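The ovaries of adult zebrafish that had been exposed to 30 ppb atrazine as embryos were compared with those of fish exposed to 3 ppb, the next lower dose. Atrazine is a triazine herbicide. The fish were of the AB wild type strain. Both groups received the herbicide in their water from 1 to 72 hours post fertilization and were then raised in clean water until adulthood, when they were 5 to 6 months of age by the sample labels, so that the groups differed in dose and no group carried a transgene or a mutation. RNA from the ovary was labelled with 1 dye and hybridized to a custom Agilent array with 128291 probes for 89208 targets. A target is a name in the array's design, which stands for a transcript, an expressed sequence or, in some cases, only a probe. A gene can therefore hold more than 1 target. The comparison held 10 of the 24 arrays in the series, which were replicates 2 to 6 at each dose. The arrays of replicate 1 were left out because their spot grid was misplaced, and their probe levels correlated with those of the other arrays at r between -0.002 and 0.010, against 0.820 to 0.978 among the 10 arrays used. The arrays of a replicate number lay on 1 slide, and 30 ppb was compared with 3 ppb within each of 5 pairs. The paper describes its biological replicates as groups begun on separate days, but does not tie the array numbers to such groups. Arrays at 0 ppb entered no test, and their levels were read in the same way and are given only for orientation.

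The zebrafish ovary holds oocytes of all stages side by side. Each oocyte is surrounded by follicle cells, the granulosa and theca, which make estradiol and progestins from cholesterol through star, cyp11a1, cyp17a1 and the ovarian aromatase cyp19a1a. Yolk is built from vitellogenins that the liver secretes into the blood under the control of estradiol, and blood vessels, stroma, red blood cells and leukocytes make up the rest of the tissue.

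No gene passed the test between the 30 ppb and the 3 ppb ovaries. Of 70975 targets tested, 0 (0%) had both an adjusted p below 0.05 and a change of at least 1.5-fold in the paired limma fit, and the lowest adjusted p was 0.9999, so that none of the differences given below passed the test. Errors after ± are standard errors of the fit, from 5 pairs unless fewer are named. Before adjustment 2095 targets had p below 0.05, which was 2.95% of those tested. Evenly spread p-values would put a share of 0.05 below that threshold, so the observed share was no excess. With the 1.5-fold minimum, 810 targets were higher at 30 ppb (1.14%) and 806 were lower (1.14%). A p that misses the threshold does not show that both doses act alike. Levels are given throughout as log2 of the processed signal minus the array's 75th percentile, and differences as 30 ppb minus 3 ppb. Over all targets the median difference was 0.03, and 54.5% of targets were higher at 30 ppb. That share ran from 44.7% without the filter on dim probes to 63.9% without replicate 6.

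The unadjusted counts changed with the fit and with single pairs. Without the replicate block 196 targets were higher and 290 lower. In the paired fit 50.1% of the targets past this threshold were higher at 30 ppb, and this share became 66.5% after quantile normalization and 32.2% when the 75th percentile was taken over probes well above background on all arrays. Leaving out replicate 6 gave 1334 higher and 490 lower, leaving out replicate 3 gave 1366 lower, and leaving out replicate 5 gave 1245 lower. Leaving out replicates 2 and 6 gave 988 higher and 373 lower.

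The precision of the differences is given by their 95% intervals. These are not adjusted for the number of targets, so they do not give the size of difference that the adjusted test could have called. The median 95% interval of a target reached 0.65 on the log2 scale to either side, which is 1.57-fold. For 43639 targets (61.5%) the whole interval lay within 2-fold either way, and among the 22056 targets that were well above background on all 10 arrays this held for 82.3%. An exact permutation test of 5 pairs cannot give a two-sided p below 0.0625, so the direction within pairs is reported as a count. Of the 64450 targets measured in all 5 pairs, 2564 (3.98%) were higher at 30 ppb in every pair and 833 (1.29%) were lower in every pair. With 1 replicate left out, which asks for agreement of only 4 pairs, 4233 (without replicate 2) to 7384 (without replicate 6) were higher and 1437 (without replicate 6) to 2908 (without replicate 3) were lower. In 45 targets (0.0698%) every 30 ppb array lay above every 3 ppb array, and in 36 (0.0559%) every 30 ppb array lay below.

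The differences of the 5 pairs were at most weakly alike. Across targets, the differences of any pair correlated with those of another at Pearson r between -0.25 and 0.12, with 7 of the 10 correlations below 0; targets are not independent replicates, and this is a description. The SD of the differences over targets was 0.71 in replicate 5, 0.81 in replicate 2, 0.84 in replicate 3, 1.07 in replicate 6 and 1.14 in replicate 4. A difference of at least 2-fold downward was seen for 10713 targets in replicate 4 and 14429 in replicate 6, but for only 2211 in replicate 5. In 2 of the 10 arrays the grid was marked as poor by the software that extracted the spot signals. On replicate 6 at 3 ppb only 31.4% of probes were well above background, against 85.2% on its partner at 30 ppb, and its lowest level was -4.18, whereas the other 9 arrays reached -7.81 or lower. On replicate 2 at 30 ppb 5.81% of spots were marked as outliers, and on replicate 6 at 3 ppb 10.4%. Their part in the comparison was not tested beyond leaving them out. Within every slide the 3 ppb array lay at position 3 and the 30 ppb array at position 4, so that dose and position cannot be told apart.

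For description 12 genes in each direction were ranked, namely those with the smallest p among named genes that differed by at least 1.5-fold, in the same direction in all 5 pairs, and were well above background on all 5 arrays of at least 1 dose. In all, 82 targets met these conditions, 33 higher and 49 lower. None of the 24 was called, their standard errors ran from 0.16 to 0.80, and the doses failed to overlap in 5 of them when all probes were averaged. A probe lacked a value on some array in 4 of the 24 genes. On probes measured on all 10 arrays, cdca8 and eef1db overlapped and no longer had 1 direction in all pairs, whereas hbba1 became free of overlap, which left 4 genes whose doses did not overlap. In the direction of 30 ppb the differences ran from 0.59 to 1.59, and in the direction of 3 ppb from -0.83 to -3.90. The values that follow are those that chose the genes and are a description. The 24 genes shared no pathway list, and hbba1 was the only one of them in any of the lists described further on.

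**Figure D1:**
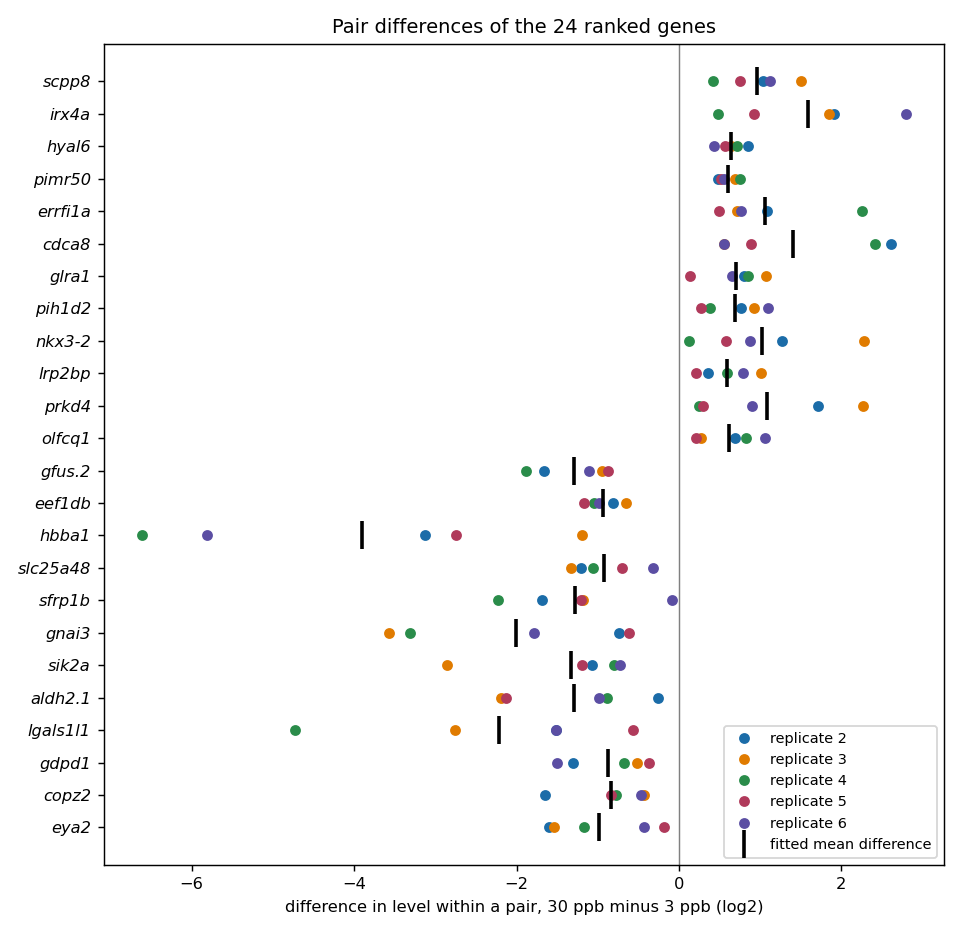
Pair differences of the 24 ranked genes. The x axis is the difference in level, 30 ppb minus 3 ppb, on the log2 scale, each coloured point is 1 of the 5 replicate pairs and the black bar is the fitted mean; all points of a gene lie on 1 side of 0 because the ranking required it, and hbba1 extends farthest, with a mean of -3.90.

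The largest difference among them was that of hbba1 (NM_131020), an adult beta globin, the oxygen carrier of red blood cells. In replicates 2 to 6 its level was 4.58, 1.42, 4.44, 3.37 and 3.69 at 3 ppb and 1.46, 0.23, -2.17, 0.62 and -2.12 at 30 ppb. It was lower at 30 ppb in every pair, most in replicates 4 and 6, although replicate 3 at 3 ppb (1.42) fell within the 30 ppb range. The difference was -3.90 ± 0.80 (SE, 5 pairs) with a 95% interval of -5.83 to -1.97. The 0 ppb ovaries ranged from -1.45 to 3.55, with a mean of 1.29, between those of the 2 doses. All 3 hbba1 probes had a lower mean at 30 ppb, by -2.77, -5.26 and -4.21, and 1 of them was slightly higher at 30 ppb in replicate 3.

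The other globins did not follow hbba1 to the same extent. The alpha globin hbaa1 differed by -1.91 ± 0.82 and was lower at 30 ppb in 4 of 5 pairs. hbba2, the second adult beta globin, stood at -1.27, -1.95, 0.13, -1.52 and -0.54 at 3 ppb and -1.61, 0.19, -2.36, -1.92 and -1.33 at 30 ppb. Its doses overlapped widely and the difference was -0.38 ± 0.60, while hbaa2 differed by -0.32 ± 0.65. The globin genes are near copies of one another, so probes may take up signal from more than 1 of them, and a given probe's share was not tested.

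All 11 measured genes of the red blood cell list were lower at 30 ppb, with a median of -0.52, but 0 of 11 were called (0% of all targets were called). Of the 11, 2 had an unadjusted p below 0.05 with a 1.5-fold change, hbba1 and the erythroid transcription factor gata1a. Over all targets 1.14% were lower at this threshold. gata1a differed by -0.71 ± 0.28 and was dim, clearing background on only 3 of 5 arrays at 3 ppb. The median of the list was -0.52, 0.21, -1.38, 0.04 and -1.29 in pairs 2 to 6. It was thus below 0 in replicates 2, 4 and 6 and close to 0 or above in replicates 3 and 5. On replicate 6 at 3 ppb, the array with the raised minimum, only 5 of the 11 targets were well above background. alas2, the first enzyme of heme synthesis in red cells, differed by -1.13 ± 0.57. In tissue of mixed cells, fewer cells of a type and less RNA per cell cannot be told apart.

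gfus.2 (NM_001003528) had the smallest p of the ranked genes (0.00081); it encodes a GDP-L-fucose synthase, which makes the fucose donor for glycoproteins. Its level was -4.34, -3.75, -4.27, -4.03 and -4.00 at 3 ppb and -6.00, -4.70, -6.15, -4.90 and -5.11 at 30 ppb. There was no overlap between doses, and the difference was -1.29 ± 0.22. The gene was dim, and on replicate 6 at 3 ppb it stood near the lowest level of that array and was not well above background. When all arrays were raised to the highest array minimum the difference was -0.27, and after normexp background correction it was -0.38. The 0 ppb ovaries spanned -5.32 to -3.80 and overlapped both doses.

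sfrp1b (NM_001083571), a secreted antagonist of Wnt signalling, also separated the doses. It stood at -2.74, -2.86, -1.63, -2.17 and -2.92 at 3 ppb and at -4.42, -4.05, -3.85, -3.38 and -3.01 at 30 ppb, a difference of -1.28 ± 0.32. In replicate 6 the pair differed by only -0.09. The kinase gene sik2a (NM_001109868) stood at 1.58, 1.33, 0.58, 2.11 and 2.17 at 3 ppb and at 0.51, -1.53, -0.22, 0.91 and 1.45 at 30 ppb. It was lower at 30 ppb in every pair, by -1.33 ± 0.34, though the doses overlapped, and its 0 ppb mean of 1.35 was close to the 3 ppb mean of 1.55.

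aldh2.1 (NM_200490), a mitochondrial aldehyde dehydrogenase, stood at -0.56, 0.55, 0.29, 0.31 and -0.85 at 3 ppb and -0.81, -1.64, -0.61, -1.81 and -1.83 at 30 ppb. Its difference of -1.29 ± 0.33 came mainly from 1 of its 2 probes, which averaged -2.75 at 3 ppb and -4.94 at 30 ppb, while the other averaged 2.64 and 2.26. With only the probe well above background on all arrays it was -0.38. lgals1l1, a galectin-1-like lectin, differed by -2.22 ± 0.58. Only 1 of its 2 probes had a value on all arrays, and that probe differed by -2.34. It was dim, at -7.95 and -6.05 on replicates 4 and 6 at 30 ppb. On replicate 6 at 3 ppb it stood at -3.86, near that array's lowest level of -4.18. gnai3, an inhibitory G protein alpha subunit measured by 1 probe, averaged -1.36 at 3 ppb and -3.37 at 30 ppb. For gnai3 2 of the 5 arrays at 30 ppb (-5.41 and -4.99) and 2 of the 5 at 0 ppb (-4.86 and -4.54) were far below all other arrays, which ranged from -2.54 to 0.02.

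The remaining genes lower at 30 ppb differed by about 1 log2 unit or less. slc25a48, a mitochondrial carrier, differed by -0.92 ± 0.21, eya2, a transcriptional coactivator of the eyes absent family, by -0.99 ± 0.27, gdpd1, of the glycerophosphodiester phosphodiesterase family, by -0.87 ± 0.23 and copz2, a subunit of the COPI vesicle coat, by -0.83 ± 0.23. For copz2 the difference was -0.05 on probes well above background on all arrays, and for eya2 it was -0.17 with all arrays raised to a common minimum. eef1db, a subunit of the translation elongation factor 1 complex, differed by -0.93 ± 0.17 and its doses did not overlap, but this rested on a missing probe. Its brighter probe averaged 3.20 at 3 ppb over 4 arrays. On all 5 arrays at 30 ppb that probe was marked as an outlier by the extraction software, so it gave no value there. The other probe stood at 1.25 and 1.13, and with probes measured on all arrays the difference was -0.12.

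In the direction of 30 ppb, cdca8 (NM_001007456) was well above background on all 10 arrays. It encodes borealin, a subunit of the chromosomal passenger complex that acts at chromosome segregation. Its level was -0.38, 1.76, 0.07, 1.96 and 2.03 at 3 ppb and 2.24, 2.31, 2.48, 2.85 and 2.58 at 30 ppb. Its difference was 1.40 ± 0.39 (95% interval 0.46 to 2.34), but the separation of the doses rested on a bright probe that gave no value on replicate 6 at 3 ppb and on 2 arrays at 30 ppb. On the 5 probes measured on all arrays the level was -1.12, 1.08, -0.64, 1.36 and 2.03 at 3 ppb and 2.24, 2.31, 1.86, 2.23 and 2.02 at 30 ppb. On these probes the doses overlapped, replicate 6 differed by -0.02, the other 4 pairs were higher at 30 ppb, and the mean over the 5 pairs was 1.59. Replicates 2 and 4 at 3 ppb were low, whereas the other 3 arrays at 3 ppb lay closer to the 0 ppb ovaries, which ranged from 1.93 to 2.76 over all probes. In the pairs of replicates 2 and 4 all 5 of these probes were higher at 30 ppb, and in replicate 6 the 3 brightest of them were lower. The list of oocyte maturation and cell cycle genes, which does not hold cdca8, did not follow it. Of its 24 targets 13 were higher and 11 lower, with a median of 0.02 and differences from -0.30 to 0.35.

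irx4a (NM_205698), an Iroquois homeobox transcription factor, had the largest difference upward. Its level was -2.40, -2.12, -4.41, -1.04 and -3.64 at 3 ppb and -0.50, -0.27, -3.93, -0.12 and -0.85 at 30 ppb. Replicate 4 was low at both doses, the other 4 arrays at 30 ppb were above all arrays at 3 ppb, and the difference was 1.59 ± 0.35. The 0 ppb mean, -2.88, was near that of 3 ppb, -2.72. Both irx4a probes were higher at 30 ppb to a like extent.

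errfi1a (NM_001083570), a feedback inhibitor of the epidermal growth factor receptor, stood at -2.71, -2.73, -2.96, -2.21 and -3.63 at 3 ppb and -1.62, -2.01, -0.71, -1.73 and -2.86 at 30 ppb, a difference of 1.06 ± 0.29. Replicate 4 contributed most, with 2.25. prkd4, of the protein kinase D family, differed by 1.08 ± 0.35, with replicates 2 and 3 at 3 ppb (-2.14 and -2.39) far below the other 8 arrays. The homeobox gene nkx3-2 differed by 1.03 ± 0.32, of which replicate 3 alone gave 2.28.

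The remaining genes were dim, apart from hyal6. scpp8, of the secretory calcium-binding phosphoproteins of mineralized tissue, stood at -3.75, -4.09, -3.76, -4.12 and -3.97 at 3 ppb and -2.72, -2.59, -3.34, -3.36 and -2.85 at 30 ppb. Its doses did not overlap, and the difference was 0.97 ± 0.21. hyal6, a hyaluronidase family gene, differed by 0.64 ± 0.16, from a mean of 0.67 to one of 1.31, with a 0 ppb mean of 1.32. pimr50, 1 of a large family of Pim-related kinase genes whose copies the probes may not tell apart, differed by 0.60 ± 0.16. The glycine receptor subunit glra1, pih1d2, lrp2bp and the olfactory receptor olfcq1 differed by 0.59 to 0.70. After normexp background correction glra1 differed by 0.34, pih1d2 by 0.26 and olfcq1 by 0.14, and without the filter on dim probes lrp2bp differed by 0.047.

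Of the 24 ranked genes, 12 were not well above background on replicate 6 at 3 ppb, the array with the raised minimum, namely 9 of the 12 higher and 3 of the 12 lower at 30 ppb. The 0 ppb levels are given for orientation, and how either dose differed from untreated ovaries was not tested. The 0 ppb mean was nearer to 30 ppb for 6 of the 12 higher genes and for 6 of the 12 lower genes, and nearer to 3 ppb for the other 6 of each. Among named genes below the brightness rule, olfm2b, an olfactomedin gene, had the smallest p of all (0.00068) with a difference of -1.42 ± 0.24; it was named after its values were seen, fell short of the background criterion on 1 array at each dose, and differed by -0.32 with a common minimum.

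**Figure D2:**
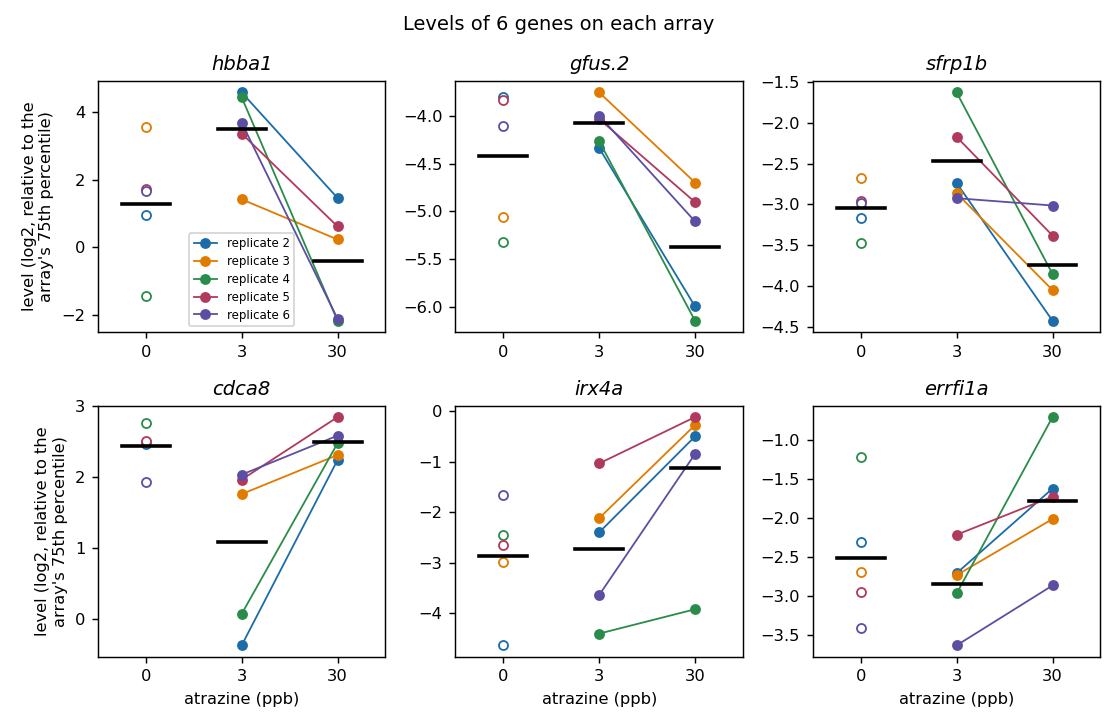
Levels of 6 ranked genes on each array, with dose on the x axis and the log2 level relative to the array's 75th percentile on the y axis. Lines join the 3 ppb and 30 ppb arrays of a replicate, open points are the 0 ppb arrays that entered no test, and black bars are means; cdca8, drawn over all its probes, is split at 3 ppb between replicates 2 and 4 (-0.38 and 0.07) and the other 3 arrays.

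Genes of oocytes differed little between doses, with pair medians of 0.19, 0.11, 0.30, -0.00 and -0.53 in replicates 2 to 6. The oocyte list held 28 targets, the zona pellucida genes, gdf9, bmp15, ddx4 and dazl among them, and all 28 were well above background on every array. The list's median level lay between 5.30 and 5.76 on the 10 arrays, and between 5.41 and 5.71 at 0 ppb. None was called, 0 had an unadjusted p below 0.05 with a 1.5-fold change (against 1.14% of targets in each direction), the differences ran from -0.19 to 0.46, and for 27 of 28 the 95% interval lay within 2-fold. zp3b, an egg envelope protein, differed by 0.04 (interval -0.44 to 0.52), gdf9, an oocyte growth factor, by 0.04 (-0.42 to 0.50), and ddx4 (vasa), a germ cell helicase, by -0.01 (-0.39 to 0.37). dazl, a germ cell RNA-binding protein, was highest at 0.46 ± 0.23 and was higher at 30 ppb in 4 of 5 pairs.

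Of the follicle somatic cell genes, 14 of 16 targets were lower at 30 ppb with a median of -0.17, and 0 were called. The median was 0.26 in replicate 2, -0.03 in replicate 3, -0.95 in replicate 4, 0.24 in replicate 5 and -0.06 in replicate 6, so that replicate 4 alone stood clearly below 0. fsta, which encodes the activin-binding protein follistatin, differed by -0.54 ± 0.32 and kitlgb, a Kit ligand, by -0.36 ± 0.23. gsdf, a gonadal growth factor of somatic cells, was bright and differed by -0.01 (interval -0.47 to 0.45). Of the list's 16 targets, only 10 were well above background on replicate 6 at 3 ppb.

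The enzymes of steroid synthesis and their regulators had a median of -0.06, with 9 of 20 targets higher and 11 lower and 0 called. cyp11a1.1, which starts the pathway by cutting the side chain of cholesterol, stood at 4.50, 4.76, 4.31, 4.56 and 4.68 at 3 ppb and 4.85, 5.17, 4.70, 4.45 and 4.53 at 30 ppb. Levels overlapped, the difference was 0.18, and its interval of -0.26 to 0.62 lay within 2-fold. cyp17a1, which leads to the androgens, differed by -0.08 (interval -0.49 to 0.33), with all 10 arrays between 1.69 and 2.76.

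star, the carrier of cholesterol into mitochondria, stood at -2.38, -1.35, -0.98, -2.16 and -3.24 at 3 ppb and at -2.23, -0.99, -3.18, -2.73 and -1.69 at 30 ppb, a difference of -0.14 ± 0.51 whose interval, -1.36 to 1.08, did not lie within 2-fold. The ovarian aromatase cyp19a1a stood at 0.37, 0.39, 1.89, -0.18 and -0.41 at 3 ppb and 0.67, 0.64, -0.00, -0.57 and 0.06 at 30 ppb. Replicate 4 at 3 ppb was the highest of its arrays, and the difference of -0.25 ± 0.37 became 0.16 without replicate 4; that of star became 0.37. At 0 ppb cyp19a1a ranged from -1.21 to 0.08.

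nr0b2a (NM_001256191) is an orphan nuclear receptor that represses other nuclear receptors. Of the list's 20 targets it alone had an unadjusted p below 0.05 and a 1.5-fold change (1.14% of all targets were lower at this threshold). It stood at -3.50, -3.23, -4.61, -3.20 and -2.45 at 3 ppb and -6.05, -4.51, -6.03, -3.00 and -4.34 at 30 ppb. It was lower at 30 ppb in 4 of 5 pairs and slightly higher in replicate 5, with a difference of -1.39 ± 0.39. The steroidogenic factors nr5a1a and nr5a1b differed by 0.05 and 0.03, each with a standard error of about 0.35 and 0.34. The list of study genes held genes that the paper names by their human homologs, and second zebrafish copies of some of them. Of its other members, cyp19a1b, the brain aromatase, which the paper does not name, differed by -0.46 ± 0.26. adcyap1a differed by 0.21 ± 0.45, adcyap1b by 0.02 ± 0.17 and crhbp, which binds corticotropin-releasing hormone, by 0.07 ± 0.35. vip, the vasoactive intestinal peptide, differed by -0.07 ± 0.46. adcyap1a and vip were dim, clearing background on 1 array at 3 ppb and on 3 at 30 ppb. The paper reports STAR, CYP19A1, ADCYAP1 and CRHBP as increased and VIP as decreased in atrazine-exposed ovaries, on arrays that include the present ones. Its qPCR gave the same directions for STAR, CYP19A1, CRHBP and VIP. Those are changes with atrazine treatment, so a difference between 30 ppb and 3 ppb does not bear on them. The paper names SF-1 (nr5a1) only as background. Of the 14 genes in the list, 11 had a tested target that carried their gene symbol. The paper's ACE, CYP1B1 and HPGD were not among these, which does not show that the array lacked probes for them.

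Gonadotropin and steroid receptors had a median of -0.04 over 16 targets, the largest differences being -0.49 for paqr8, a membrane progestin receptor that acts in oocyte maturation, and 0.39 for gper1, a membrane estrogen receptor. The ovulation and prostaglandin list had a median of -0.10 over 21 targets. Its median was -0.99 in replicate 4 and between -0.25 and 0.33 in the other pairs. Well above background on replicate 6 at 3 ppb were only 9 of 16 receptor and 13 of 21 ovulation and prostaglandin targets. ptgs2a, a cyclooxygenase, differed by -1.02 ± 0.63 and rgs2, a regulator of G protein signalling, by 0.74 ± 0.40; 0 of the targets were called or passed the unadjusted threshold.

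The largest and most uneven differences between paired ovaries were those of liver genes. The liver and yolk protein list held 20 targets, among them vitellogenins, fabp10a and apolipoproteins, and its median difference was -0.56, 1.11, 7.76, -6.49 and 2.07 in pairs 2 to 6. On single arrays its median level was 5.29, -4.53, -4.20, 4.29 and -2.77 at 3 ppb and 4.54, -3.44, 3.92, -2.99 and 0.04 at 30 ppb. High arrays occurred at both doses, namely replicates 2 and 5 at 3 ppb and replicates 2 and 4 at 30 ppb. Only 11 of the 20 targets were well above background on replicate 6 at 3 ppb, the array with the raised minimum. The untreated ovaries had medians of -1.16, 2.65, 1.93, 2.17 and 4.92. The fitted median was 0.53, with 14 of 20 targets higher, 0 called and 0 past the unadjusted threshold.

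vtg4, a vitellogenin, stood at 7.10, -3.96, -2.96, 6.95 and -1.50 at 3 ppb and 7.37, -2.37, 6.65, -1.41 and 2.74 at 30 ppb. Its difference was 1.47 with an interval of -4.06 to 7.00. The liver fatty acid binding protein fabp10a, which is not a yolk protein, stood at 6.07, -5.52, -4.00, 4.81 and -3.47 at 3 ppb and 6.18, -3.81, 4.79, -4.03 and -0.25 at 30 ppb, high and low on the same arrays as vtg4. Without replicate 4 the list's median difference was -1.06 and without replicate 5 it was 2.19, so its sign depended on those pairs. For none of the 20 targets did the interval lie within 2-fold. Whether liver tissue was carried along in some samples was not tested.

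Digestive enzymes of the exocrine pancreas, a list added after the values were seen, behaved in a similar way on 1 array. Their median level was 3.19 on replicate 6 at 3 ppb, and on the other 9 arrays it lay between -3.76 and -1.66. ela2, an elastase, stood at 4.48 on that array and between -3.43 and -1.50 on the others. All 19 targets were lower at 30 ppb in the fit, with a median of -1.10 and 0 called, but the pair medians were -0.21, 0.16, 0.63, 0.41 and -6.10, and without replicate 6 the median was 0.22. Replicate 6 at 3 ppb was also the array with the poor grid and the raised minimum, and the part of these in the result was not tested.

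**Figure D3:**
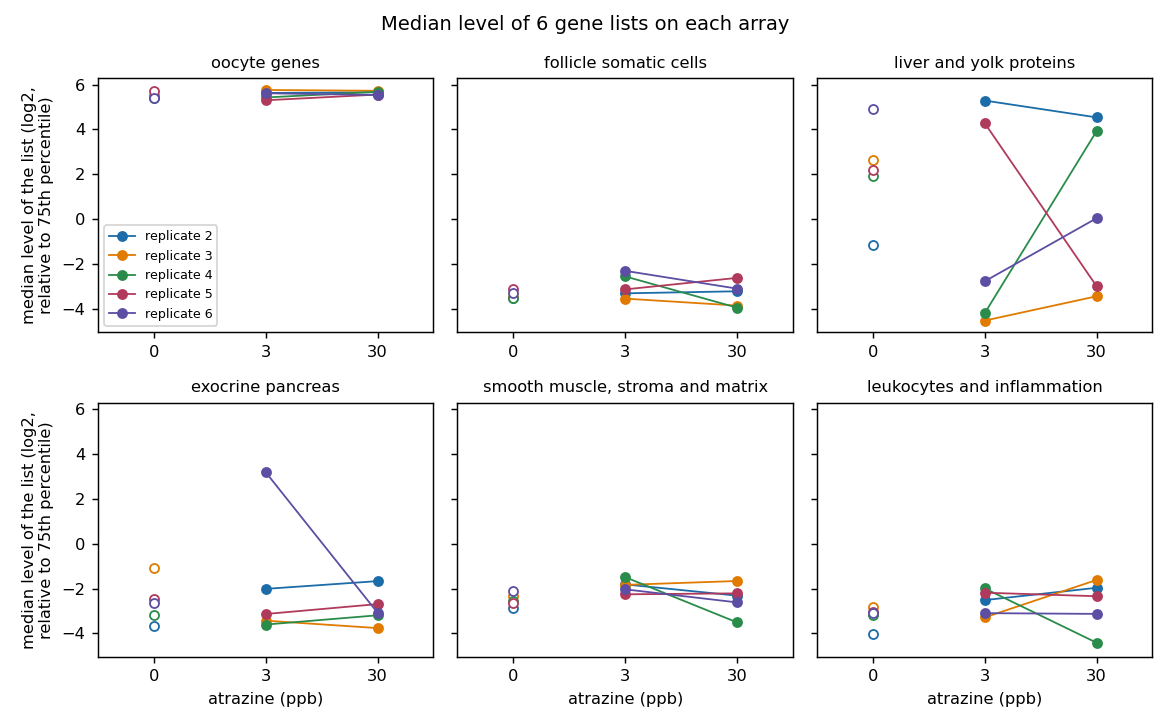
Median level of 6 gene lists on each array against dose, on the log2 scale relative to the array's 75th percentile, with lines joining the arrays of a replicate and open points for 0 ppb. Oocyte genes stayed between 5.30 and 5.76 on the 10 arrays, whereas liver and yolk proteins ran from -4.53 to 5.29 at 3 ppb and pancreatic enzymes reached 3.19 on replicate 6 at 3 ppb.

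Markers of stroma, vessels and leukocytes were lower at 30 ppb chiefly in replicate 4. For smooth muscle, stroma and matrix 15 of 19 targets were lower with a median of -0.49, and the pair medians were -0.32, 0.47, -1.67, -0.02 and -0.61. The collagen gene col1a2 differed by -0.90 ± 0.45 and postnb, a matrix protein, by 0.48 ± 0.26. Leukocyte and inflammation genes had a median of -0.24, with -1.40 in replicate 4 and 0.41 and 0.60 in replicates 2 and 3. mpeg1.1, a macrophage marker, stood at -2.98, -2.46, -0.42, -2.13 and -3.16 at 3 ppb and -1.63, -1.07, -5.45, -2.50 and -3.32 at 30 ppb, so that replicate 4 was the highest array at 3 ppb and the lowest at 30 ppb. Endothelial genes had a median of -0.16, with -1.26 in replicate 4. On replicate 6 at 3 ppb only 13 of 19 stromal, 10 of 23 leukocyte and 4 of 10 endothelial targets were well above background. In these 3 lists 0 targets were called, and 0 passed the unadjusted threshold.

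In replicate 4, therefore, the median difference of liver genes was 7.76, whereas those of stromal, leukocyte, endothelial and follicle cell genes ran from -1.67 to -0.95. Oocyte genes differed by 0.30 in that pair.

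**Figure D4:**
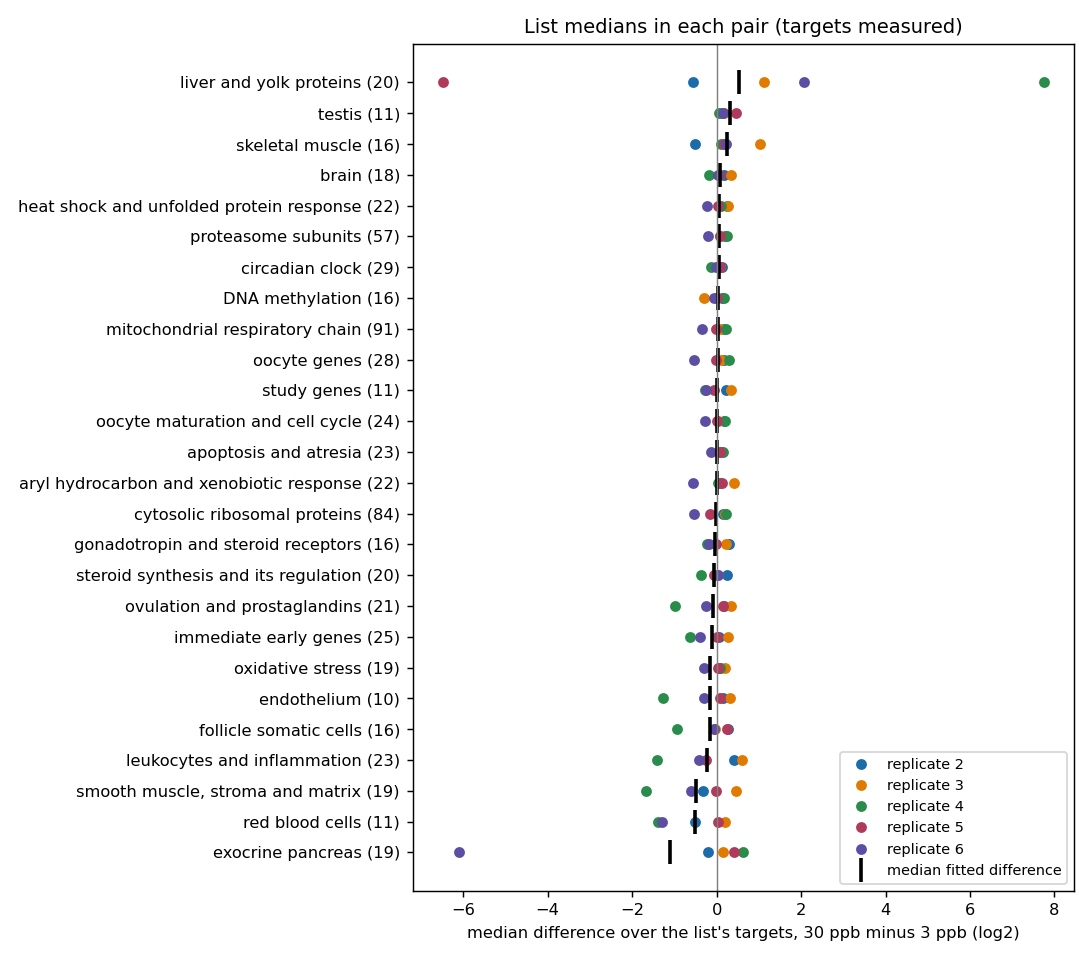
Median difference of 26 gene lists in each of the 5 pairs, 30 ppb minus 3 ppb on the log2 scale, with the number of targets after each name, coloured points for the pairs and black bars for the median fitted difference. Liver and yolk proteins and exocrine pancreas hold the outlying pairs, 7.76 and -6.49 in the first and -6.10 in the second. The fitted medians of the ribosomal, respiratory chain and proteasome lists lie close to 0, but their medians in replicate 6 are -0.54, -0.34 and -0.21.

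Skeletal muscle genes had a median of 0.25, and 3 of 16 targets, among them the calcium pump atp2a1 (0.36) and the troponin gene tnnt3b (0.42), were higher at 30 ppb in all 5 pairs, as were 3.98% of all targets measured in 5 pairs. Brain genes had a median of 0.08 with 2 of 18 higher in every pair, slc17a6b, a vesicular glutamate transporter (0.52 ± 0.18), and snap25a, a synaptic vesicle fusion protein (0.54 ± 0.20); neither reached 1.5-fold. Of the testis genes 7 of 11 targets were higher and 4 lower, with a median of 0.33 that was 0.15 after normexp background correction. On replicate 6 at 3 ppb only 7 of 16 skeletal muscle, 8 of 18 brain and 3 of 11 testis targets were well above background.

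Among response pathways, the heat shock and unfolded protein list had a median of 0.07. serpinh1b, the collagen chaperone of the endoplasmic reticulum, was lower at 30 ppb in every pair, with -3.71, -3.73, -3.32, -5.08 and -3.79 at 3 ppb and -5.09, -4.12, -6.36, -5.12 and -5.24 at 30 ppb. This gap was widest in replicate 4 and nearly closed in replicate 5, and the difference was -1.26 ± 0.44. hsp90aa1.1, a cytosolic chaperone, was higher in every pair by a mean of 0.42 ± 0.22. The aryl hydrocarbon and xenobiotic list had a median of 0.01, with cyp1a, the usual target of the aryl hydrocarbon receptor, at 0.40 ± 0.27. Of its 22 targets, only 12 were well above background on replicate 6 at 3 ppb. The oxidative stress list had a fitted median of -0.15, with hmox1a, heme oxygenase, at -1.08 ± 0.68. Its pair medians were 0.09, 0.21, 0.09, 0.03 and -0.31 in replicates 2 to 6, so that only replicate 6 was below 0.

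The lists of apoptosis and atresia (0.01), circadian clock genes (0.05) and immediate early genes (-0.11) held no target that passed the unadjusted threshold. Neither did the large complexes. Cytosolic ribosomal proteins had a median of -0.02 over 84 targets, of which 83 had an interval within 2-fold. The mitochondrial respiratory chain had 0.03 over 91, with 79 within 2-fold, and proteasome subunits 0.06 over 57, with 54 within 2-fold. In the same order their medians were 0.22, 0.23 and 0.24 in replicate 4 and -0.54, -0.34 and -0.21 in replicate 6. Well above background on replicate 6 at 3 ppb were only 17 of 29 circadian clock and 16 of 25 immediate early targets.

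The DNA methylation list had a median of 0.03 over 16 targets. Its lowest member was dnmt1 (NM_131189), the maintenance DNA methyltransferase, at -1.83 ± 0.53. The target level was 4.95, 2.38, 5.01, 5.16 and 2.58 at 3 ppb and 2.08, 1.84, 1.85, 2.63 and 2.56 at 30 ppb. Replicates 2, 4 and 5 at 3 ppb were high, and replicates 3 and 6 were at the level of the 30 ppb arrays.

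This pattern lay in 2 of the 7 dnmt1 probes. Probe A_15_P100707 stood at 6.62, -4.07, 6.65, 6.63 and -2.97 at 3 ppb and at -4.92, -3.39, -5.28, -2.09 and -2.10 at 30 ppb. Probe A_15_P663091 followed it, with 6.61, -3.18, 6.58, 6.64 and -2.93 at 3 ppb and -3.91, -3.06, -5.05, -2.31 and -2.16 at 30 ppb. Both probes were high on 3 of 5 arrays at 3 ppb, none at 30 ppb, and replicates 3 and 5 of the 5 at 0 ppb, with no array in between. The other 5 dnmt1 probes differed by -0.06 to 0.04 on average, so the gene's signal outside these probes did not separate the doses. On probes well above background on all arrays dnmt1 differed by 0.01.

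**Figure D5:**
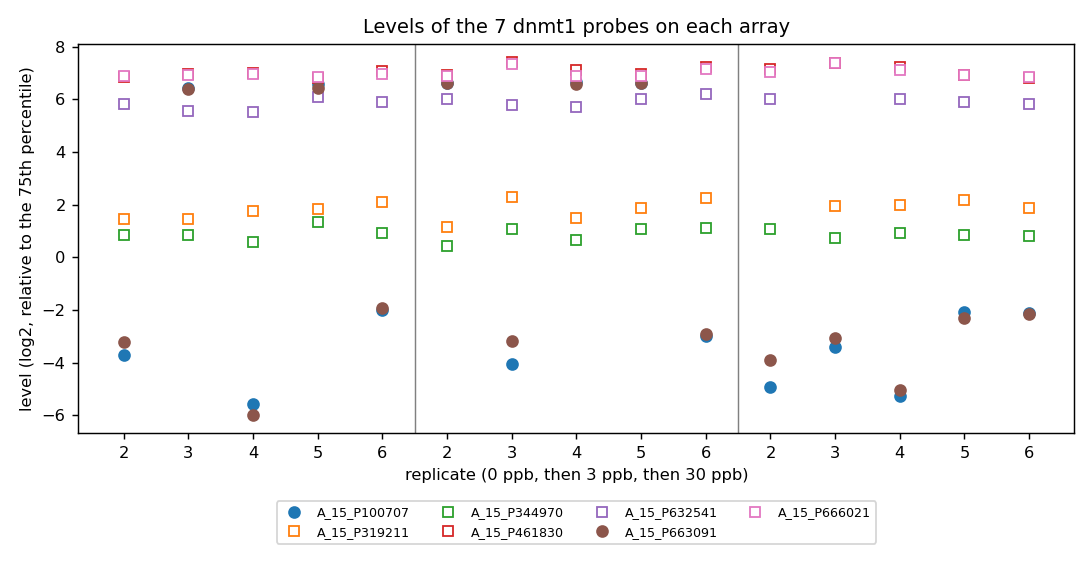
Levels of the 7 dnmt1 probes on each array, on the log2 scale relative to the array's 75th percentile, for the 5 replicates at 0, 3 and 30 ppb in turn. Filled circles are the 2 probes that stood either at 6.39 and above or at -1.93 and below, open squares are the other 5 probes, and no 30 ppb array shows the high state.

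Other probes also took either a high or a low level. Of 94315 probes measured on all 15 arrays at 0, 3 and 30 ppb, 751 (0.796%) had a gap of at least 4 log2 units between neighbouring levels when the 10 arrays were sorted, a description chosen after the values were seen. For 186 of them the number of high arrays was the same at both doses and for 528 it differed by 1. Among these, 289 probes were high only on replicate 6 at 3 ppb. It differed by 3 for 8 probes, of which dnmt1 holds 2, and by 4 for 1 probe. A probe of npm1b, a nucleophosmin gene, was among the 8, being high on 2 arrays at 3 ppb and on all 5 at 30 ppb.

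The probe that differed by 4 measured BM095545, an expressed sequence without a gene name in the tables used here. It stood at -6.51, -6.27, -6.24, -6.24 and -3.96 at 3 ppb and at -6.20, 1.58, 1.49, 1.69 and 1.83 at 30 ppb. It was high on 4 of 5 arrays at 30 ppb and on none at 3 ppb or 0 ppb, with a difference of 5.92 ± 1.15. The 4 high arrays lay between 1.49 and 1.83, and the 0 ppb arrays between -6.95 and -3.96.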

How the data were processed

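Ovary RNA of adult zebrafish was measured on 1-colour custom Agilent arrays, scanned and extracted by the authors with Feature Extraction (version 11.5 by the submitters' notes). The deposited values were the processed signal intensity of each spot, already background-corrected by that software, with median spot and background intensities and marks for outlier spots. Here spots marked as outliers were dropped, intensities under 1 were set to 1, log2 was taken, the array's 75th percentile over all non-control spots was subtracted, and spots were averaged per probe and probes per target. A probe had to clear the software's background test on 3 or more of 10 arrays, which 106942 did, and targets with at least 3 complete pairs were tested (70975, of which 13303 carried 1 gene symbol). The number of arrays, 5 at each dose, limits the precision.

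A limma model (limma 3.58.1, R 4.3.3) with the replicate number as a block compared 30 ppb with 3 ppb, with Benjamini-Hochberg adjustment over all targets; a target was called at an adjusted p below 0.05 and at least 1.5-fold. The methods define replicates as groups started on different days, and both arrays of a number shared a slide and a scan session. Deviations of same-numbered arrays correlated at 0.54, 0.45, 0.06, 0.52 and 0.50 for replicates 2 to 6. The methods give 6 adult females as the source of the array tissue and tie no array number to a tank or a start day. The p-values measure how the differences within pairs varied over these 5 pairs of samples. Replicate 1 was left out. The ranked genes were the 12 smallest p in each direction among named targets with a difference of at least 1.5-fold, the same direction in all 5 pairs, and well above background on all 5 arrays of a dose; besides these, the study genes and up to 2 members in each direction of each list were named, and other named genes were chosen after their values were seen. The comparison, the 26 gene lists and these rules were chosen with earlier results of these data known. The scripts were tested on simulated data. Alternatives covered normalization, background correction, filters, probe summary, array weights, the block, single replicates and an unpaired analysis of variance. The last used only the 3 ppb and 30 ppb arrays of replicates 2 to 6. The paper's own analysis of variance was followed by Tukey's test, which was not run here. The mean spot signal was not used here, so normexp was run on median signals with an offset of 50. Figures were drawn with matplotlib 3.10.9.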

Additional observations from a re-analysis of the deposited data

Results flagged for a closer look

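In groups of 5 arrays, the highest or lowest value was set against its nearest neighbour as a share of the group's range, with a critical value of 0.71. The groups were not independent, and some, ela2 and the exocrine pancreas list among them, were chosen after their values were seen. The number flagged therefore cannot be set against the rate of about 1 in 20 that chance gives for independent groups. Of 100 groups, 8 exceeded the critical value. Of these, 5 concerned replicate 6 at 3 ppb. Its lowest level was -4.18, against -8.11 for the nearest array at that dose (share 0.859), and its percentage of spots marked as outliers was 10.4, against 2.70 (share 0.76). On the same array gnai3 stood at 0.02, against -1.53 for the nearest (share 0.829), ela2 at 4.48, against -2.01 (share 0.821), and the median of the exocrine pancreas list at 3.19, against -2.01 (share 0.766).

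The other 3 were low values of replicate 4. irx4a at 30 ppb stood at -3.93, against -0.85 (share 0.808). At 3 ppb, copz2 stood at -4.19, against -3.39 (share 0.77), and gdpd1 at -0.28, against 0.29 (share 0.729).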

How the results depend on the processing

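The count of called targets was 0 under every alternative run, with a lowest adjusted p of 0.135, by limma without replicates 2 and 6. In the paired limma fit 2095 targets (2.95%) had an unadjusted p below 0.05, a share below that threshold. The 5 pairs and dim signal limit the comparison: 61.5% of targets had an interval within 2-fold. For the 24 ranked genes, chosen for 1 direction in all pairs so that leaving out pairs cannot turn it, the adjusted p ran from 0.875 to 1.00, and several differences came close to 0: lrp2bp 0.047 without a filter, copz2 -0.05 and eef1db -0.12 on well-measured probes, olfcq1 0.14 after normexp. Alternatives chosen after seeing the data were a common minimum, only probes measured on all arrays, and leaving out replicates 2 and 6.

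Counts at an unadjusted p below 0.05 and 1.5-fold changed most. The cause was not tested, beyond fewer targets or samples where an alternative removes them. Higher at 30 ppb were 196 targets without the replicate block, 537 with the 75th percentile over well-measured probes, 197 after normexp, 104 on probes well above background on all arrays, 275 with a common minimum, 149 by the methods' analysis of variance and 0 by it after Benjamini-Hochberg, and 696 to 1334 when leaving out 1 replicate. Lower were 290 without the replicate block, 497 after quantile normalization, 268 after normexp, 110 on well-measured probes, 129 with a common minimum, 373 without replicates 2 and 6, 190 and 0 by the analysis of variance before and after Benjamini-Hochberg, and 490 to 1366 when leaving out 1 replicate.

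Targets higher in every pair numbered 1528 with the other 75th percentile, 1264 after normexp, 603 on well-measured probes, 11482 in the 3 pairs without replicates 2 and 6, and 4233 to 7384 when leaving out 1 replicate. Those lower in every pair numbered 1298, 418, 171, 3444 and 1437 to 2908 in the same order, and 246 with a common minimum.

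Of the 11 study genes 8 turned sign under some alternative, and cyp11a1.1, cyp17a1 and cyp19a1b did not. adcyap1a was -0.039 without a filter, -0.061 with a common minimum and -0.26 to 0.52 over single replicates left out. crhbp was -0.021 after normexp and -0.16 to 0.34 over replicates. vip was 0.26 after quantile normalization, 0.49 with array weights, 0.22 without replicates 2 and 6 and -0.33 to 0.41 over replicates. nr5a1a was -0.010 after normexp, -0.022 on well-measured probes, -0.0041 on probes measured on all arrays, -0.37 without replicates 2 and 6 and -0.14 to 0.44 over replicates. adcyap1b was -0.028 with the other 75th percentile, -0.029 without a filter, -0.015 with array weights, -0.014 on probes measured on all arrays and -0.040 to 0.084 over replicates. nr5a1b was -0.023 with the other 75th percentile, -0.094 without replicates 2 and 6 and -0.22 to 0.32 over replicates. Over replicates cyp19a1a was -0.43 to 0.16 and star -0.57 to 0.37. dnmt1 was 0.0081 on well-measured probes, which leave out the 2 probes with a high and a low level.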
